A study of Mus musculus with 6 samples.

Results

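The replication-dependent histone genes encode the linker histone H1 and the core histones H2A, H2B, H3 and H4 that package newly made DNA. They were taken as the rows of the RNA-seq table whose symbol begins with Hist1h, Hist2h, Hist3h or Hist4h, leaving out names with -ps, and were selected on a measured value, a minimum of 30 counts summed over the 3 libraries. This rule left 62 of 68 symbols, in a table of 54189 rows: 5 H1, 17 H2A, 16 H2B, 12 H3 and 12 H4 genes. In GRCm38, 51 members lie in the Hist1 cluster (chr13:21715763-23764406) and 9 in the Hist2 cluster (chr3:96220361-96270132), while Hist3h2a on chromosome 11 and Hist4h4 on chromosome 6 are the only members of their clusters. Just inside the minimum was Hist1h4f with 34 summed counts (9 in Control, 8 in ScxHt and 17 in Dicer cKO tendon), and just outside it was Hist1h4b with 29. The other 5 symbols left out were Hist1h1t and Hist1h2aa with 1 summed count each, Hist1h2ba with 10, Hist3h2ba with 11 and Hist2h2ab with 22.

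RNA came from Achilles tendon of 4-week-old mice of 3 genotypes: Control (Dicer f/f, floxed alleles and no Cre), ScxHt (ScxCre/+ knock-in, Dicer +/+) and Dicer cKO (ScxCre/+ knock-in, Dicer f/f). ScxCre acts mainly where Scx, a transcription factor of tendon and ligament cells, stays expressed, so other cells of the tissue keep Dicer, and the knock-in also leaves both Cre genotypes with 1 unmodified Scx allele. Control mice thus carry the floxed alleles without Cre and ScxHt mice carry Cre without them, and there was no unmodified group. Each genotype had 1 RNA-seq library, and values are listed throughout in the order Control, ScxHt, Dicer cKO. The libraries held 16244232, 15769301 and 14959399 counts, and the small RNA-seq libraries were not used here. With no replicate, no test between genotypes was possible: every ratio below compares 2 libraries, its 95% interval (Clopper-Pearson, exact) covers counting error only, and the spread between mice is unknown. Dicer1 itself had 1919, 2025 and 1621 counts, a Dicer cKO/Control ratio of 0.877 (0.821 to 0.938), against 1.01 (0.950 to 1.08) for ScxHt/Control. This count covers the whole gene, including exons that Cre does not remove.

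Histone mRNA of this class is made mainly in S phase, so that histone supply matches DNA replication. The transcripts end in a conserved stem-loop instead of a poly(A) tail. The stem-loop is bound by SLBP, and the U7 snRNP directs the cut that forms the 3′ end just after it. Some of these genes can also give longer, polyadenylated transcripts that run past the stem-loop, known from differentiated cells. Whether the libraries were made from poly(A)-selected RNA is not given in the sources used here.

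The sequences that define the family were read first, from GRCm38 and the GENCODE vM21 gene models. A histone 3′ stem-loop lay within 150 bases of the last coding base in 59 of the 61 members that have a coding sequence, at 25 to 62 bases from it (median 35). Among 21871 other protein-coding genes, searched in the same window without symbols that begin with Hist, 5 (0.0229%) held a match. Hist1h2an and Hist2h2be had none in this window, and Hist1h2aj is annotated as a pseudogene. The 59 stem-loops took 8 forms, and 1 form was shared by 39 members. Base 4 of the stem-loop, counted from its 5′ end, separated the types: it was T in all 47 H1, H2A, H2B and H3 members and C in all 12 H4 members. The following are shown because they cover the common form (Hist1h1b and Hist1h3b), other forms with T at base 4 and 2 forms with C, each with 5 flanking bases on either side and the 16 stem-loop bases in capitals.
Hist1h1b: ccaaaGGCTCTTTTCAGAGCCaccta
Hist1h3b: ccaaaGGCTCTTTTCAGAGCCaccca
Hist1h3g: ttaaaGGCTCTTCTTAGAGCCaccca
Hist1h2bk: ccaaaGGCTCTTTTAAGAGCCactaa
Hist2h2ac: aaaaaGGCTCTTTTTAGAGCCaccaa
Hist1h4h: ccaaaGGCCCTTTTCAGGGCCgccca
Hist1h4j: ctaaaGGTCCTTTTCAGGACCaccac
In GRCm38 these lie, on the plus strand, at chr13:23752815-23752840 (Hist1h3b), chr13:23535884-23535909 (Hist1h3g), chr13:22036295-22036320 (Hist1h2bk), chr13:23531453-23531478 (Hist1h4h) and chr13:21735432-21735457 (Hist1h4j). On the minus strand they lie at chr13:21779832-21779857 (Hist1h1b) and chr3:96220413-96220438 (Hist2h2ac). All 7 lie after the coding sequence, 6 of them within the annotated gene, whereas the annotated Hist1h1b ends 46 bases before the end of its stem-loop. In all, 46 of the 59 stem-loops lay within the annotated gene, and 11 lay wholly past its end.

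Promoter motifs were counted by histone type. RefSeq promoters (GRCm38.p6, 250 bases before to 50 after the start) were matched for 56 members, and motifs were searched on both strands. CCAAT stood in the promoters of all 5 H1, 16 H2A, 14 H2B and 10 H3 members matched but in 3 of 11 H4 members, against 37.4% of 32851 promoters of all genes. TATAAA stood in 55.4% of the members' promoters and in 13.6% of all, with 4 of 5 H1, 9 of 16 H2A, 6 of 14 H2B, 4 of 10 H3 and 8 of 11 H4 promoters. ATTTGCAT, the octamer read by OCT1, occurred in 6 H2A and 5 H2B promoters and in no promoter of another type (1.74% of all genes). The windows of neighbouring H2A and H2B genes can overlap, as for Hist1h2ae and Hist1h2bg. With both strands searched, the same site can then count for both genes, so counts of a motif are not all independent. AAACACA, known as the H1 box, occurred in 4 of 5 H1 promoters and in 7.18% of all. The promoters of an H1, an H3 and an H4 gene that were higher in the Dicer cKO library are printed as examples, with every match to these 4 motifs, on either strand, in capitals. The matches do not overlap each other and are a description of these letters only.
Hist1h1b: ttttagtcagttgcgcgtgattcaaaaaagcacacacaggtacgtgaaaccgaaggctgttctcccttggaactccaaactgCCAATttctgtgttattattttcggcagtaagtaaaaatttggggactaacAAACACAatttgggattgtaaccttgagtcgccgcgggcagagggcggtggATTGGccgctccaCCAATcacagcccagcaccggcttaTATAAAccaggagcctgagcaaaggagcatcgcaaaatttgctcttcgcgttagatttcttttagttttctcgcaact
Hist1h3b: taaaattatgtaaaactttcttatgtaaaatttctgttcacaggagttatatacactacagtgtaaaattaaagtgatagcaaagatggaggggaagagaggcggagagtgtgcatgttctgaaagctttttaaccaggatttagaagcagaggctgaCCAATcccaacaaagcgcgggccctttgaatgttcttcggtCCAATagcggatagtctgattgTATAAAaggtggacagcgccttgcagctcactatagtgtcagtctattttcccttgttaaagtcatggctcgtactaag
Hist1h4h: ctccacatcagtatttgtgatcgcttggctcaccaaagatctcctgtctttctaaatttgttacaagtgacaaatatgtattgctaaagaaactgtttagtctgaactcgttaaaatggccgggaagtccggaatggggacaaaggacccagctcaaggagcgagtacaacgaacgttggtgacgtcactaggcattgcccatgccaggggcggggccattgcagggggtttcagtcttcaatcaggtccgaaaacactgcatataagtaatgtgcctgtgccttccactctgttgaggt
They cover chr13:21780576-21780875 on the minus strand, chr13:23752095-23752394 on the plus strand and chr13:23530794-23531093 on the plus strand. The H1 promoter held 3 CCAAT, 1 TATAAA and 1 AAACACA, the H3 promoter 2 CCAAT and 1 TATAAA, and the H4 promoter held no match, although 8 of 11 H4 promoters held TATAAA.

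Levels are given per length, in the authors' RPKM (counts scaled to the length of the gene and the depth of the library). H2A genes stood highest, with a median over 17 genes of 18.7 RPKM in Control, 32.0 in ScxHt and 29.4 in Dicer cKO tendon. The median over 5 H1 genes was 5.20, 14.0 and 14.6 RPKM. The medians of H2B were 1.95, 3.67 and 3.79 RPKM, those of H3 1.72, 4.24 and 3.88, and those of H4 1.82, 3.13 and 2.83. Hist2h2aa1 had the highest level of all members, at 73.2, 113 and 101 RPKM, followed by Hist2h2ac at 44.9, 95.8 and 72.4 RPKM. These H2A genes and Hist2h2aa2 belong to the Hist2 cluster. The H1 level was led by Hist1h1c at 22.2, 25.2 and 34.4 RPKM, and the H3 level by Hist1h3b at 5.48, 10.9 and 13.1 RPKM. The members' share of all counts was 0.0357% for Control, 0.0563% for ScxHt and 0.0570% for Dicer cKO. In these bulk samples, more cells in S phase and more histone RNA per cell cannot be told apart.

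**Figure D1:**
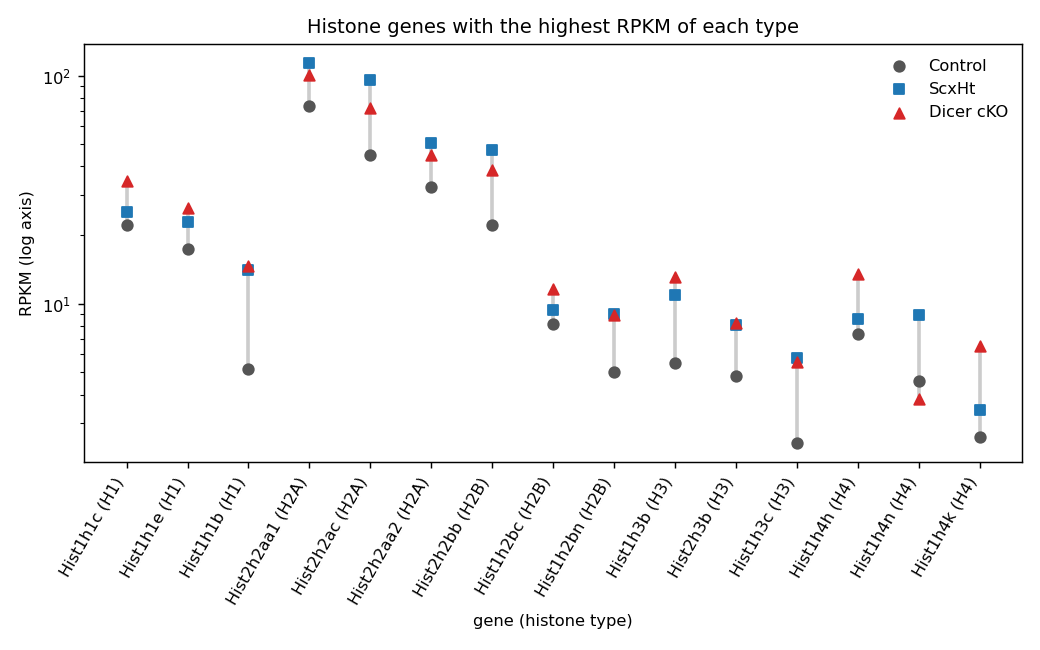
RPKM (log axis) of the 3 genes with the highest mean RPKM of each histone type, 1 point per library (circle Control, square ScxHt, triangle Dicer cKO), with a line spanning the 3 values. The Control library is the lowest in 14 of the 15 genes; in Hist1h4n the Dicer cKO library is lower, at 3.84 RPKM against 4.57.

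Histone genes were higher in the Dicer cKO than in the Control library in every type. The 62 members summed to 5806 Control counts and 8528 Dicer cKO counts, a ratio of 1.53 (1.48 to 1.58) after scaling with DESeq2 size factors. The ratio was above 1 in 60 members, with a median log2 ratio of 0.70, while the 14746 genes with summed counts in the members' range (34 to 2367) had a median log2 ratio of -0.0026. The interval lay above 1 in 44 of 62 members, against 18.8% of those genes, and below 1 in 0 members, against 19.7%. Of 29 members with a baseMean (mean scaled count of the 2 libraries) above 50, 9 had a ratio above the upper threshold, against 3.87% of all genes at that minimum, and 0 had one below the lower threshold, against 4.17%. The thresholds are those of the study, 0.60 and, within rounding, its inverse of about 1.7. The other 33 members did not reach this baseMean. The H3 genes had the largest summed ratio, 2.02 (1.76 to 2.33), followed by H2B at 1.65 (1.50 to 1.82), H1 at 1.58 (1.48 to 1.69), H2A at 1.44 (1.37 to 1.51) and H4 at 1.36 (1.17 to 1.59). The interval of H3 does not meet those of H1, H2A and H4, whereas those of H1, H2B and H4 overlap.

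The ScxHt library, with Cre and intact Dicer, was also above the Control. Its summed count was 8877, a ratio to the Control of 1.47 (1.42 to 1.51), with a median log2 ratio of 0.64 against 0.02 over the 14746 genes. The ratio was above 1 in 57 members. The interval lay above 1 in 37 of 62 members, against 19.7% of genes, and below 1 in 0, against 18.4%. Of 29 members with baseMean above 50, 5 were above the upper threshold, against 3.05% of all genes, and 0 were below the lower one, against 4.73%. With scaling to total counts, which raised every log2 ratio of this comparison by 0.10, 12 members were above the upper threshold. The share of all genes above it at this scaling was not computed. H3 again had the largest summed ratio, 1.85 (1.61 to 2.13), and H1 the smallest, 1.23 (1.15 to 1.32). Both comparisons share the Control library, so a low value in that library alone raises both ratios. On counts scaled over all 3 libraries, the Control was the lowest library for 56 of 62 members, the ScxHt library for 4 and the Dicer cKO library for 2. These ranks leave out counting error: the interval held 1 in 25 members for ScxHt/Control and in 18 for Dicer cKO/Control. The same ranks were not counted over all genes.

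The 2 Cre libraries, compared directly, were close for the family as a whole. The Dicer cKO/ScxHt ratio of summed counts was 1.06 (1.03 to 1.09), with a median log2 ratio of 0.07 against -0.0050 over the 14746 genes, and 34 members were above and 28 below 1. The interval lay above 1 in 11 of 62 members, against 21.4% of genes, and below 1 in 3, against 21.3%. Of 33 members with baseMean above 50, 1 was above the upper threshold, against 7.67% of all genes, and 0 were below the lower one, against 5.68%. The summed ratio was 1.31 (1.23 to 1.39) for H1 and 1.20 (1.10 to 1.31) for H2B, with both intervals above 1, and leaving out any 1 gene kept them there. For H2A it was 0.944 (0.906 to 0.983), but this rested on Hist2h2ac: without it the ratio was 0.972 (0.930 to 1.02), and the 13 H2A genes of Hist1 had 0.988 (0.935 to 1.04). For H3, at 1.11 (0.989 to 1.24), and H4, at 0.990 (0.864 to 1.13), the interval held 1, though for H3 it lay above 1 without Hist1h3e, at 1.16 (1.03 to 1.31). By cluster it was 1.13 (1.09 to 1.17) for Hist1 and 0.902 (0.853 to 0.954) for Hist2, the latter 0.946 (0.886 to 1.01) without Hist2h2ac. With scaling to total counts, which moved every log2 ratio of this comparison by -0.06, the ratio of all members was 1.01 (0.983 to 1.04), so whether the interval held 1 depended on the scaling. In the 40 members whose exons overlap no other gene, a choice made after the values were seen, it was 1.24 (1.17 to 1.31). These 40 hold no H2A gene, because the exons of every H2A member overlap another gene.

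**Figure D2:**
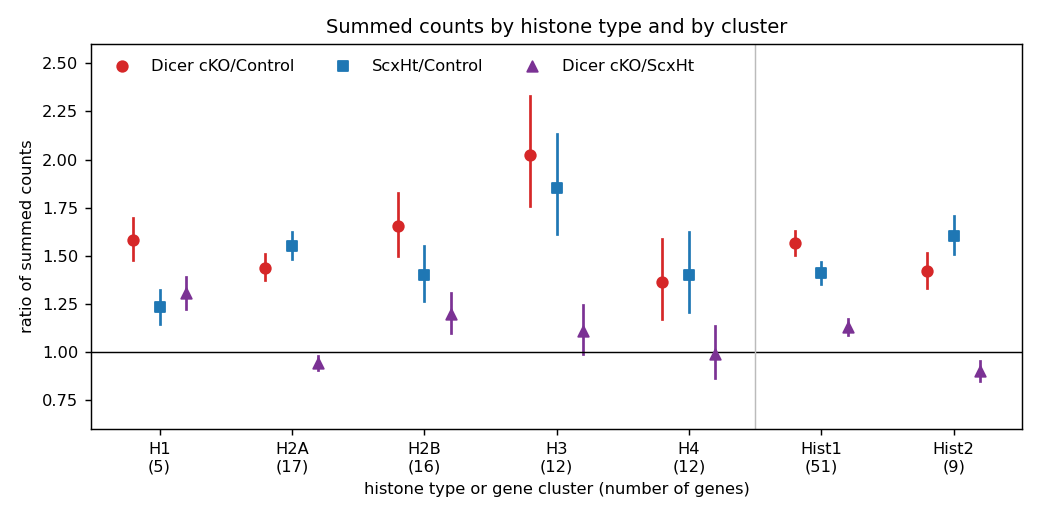
Ratio of summed counts (linear axis, not starting at 0) for each histone type and for the Hist1 and Hist2 clusters, with 95% counting intervals, in the 3 comparisons; the number of genes is in parentheses. Both ratios to the Control lie above 1 in every group, and the Dicer cKO/ScxHt ratio lies above 1 for H1 and H2B and below 1 for H2A and Hist2, whose intervals both hold 1 without Hist2h2ac.

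**Figure D3:**
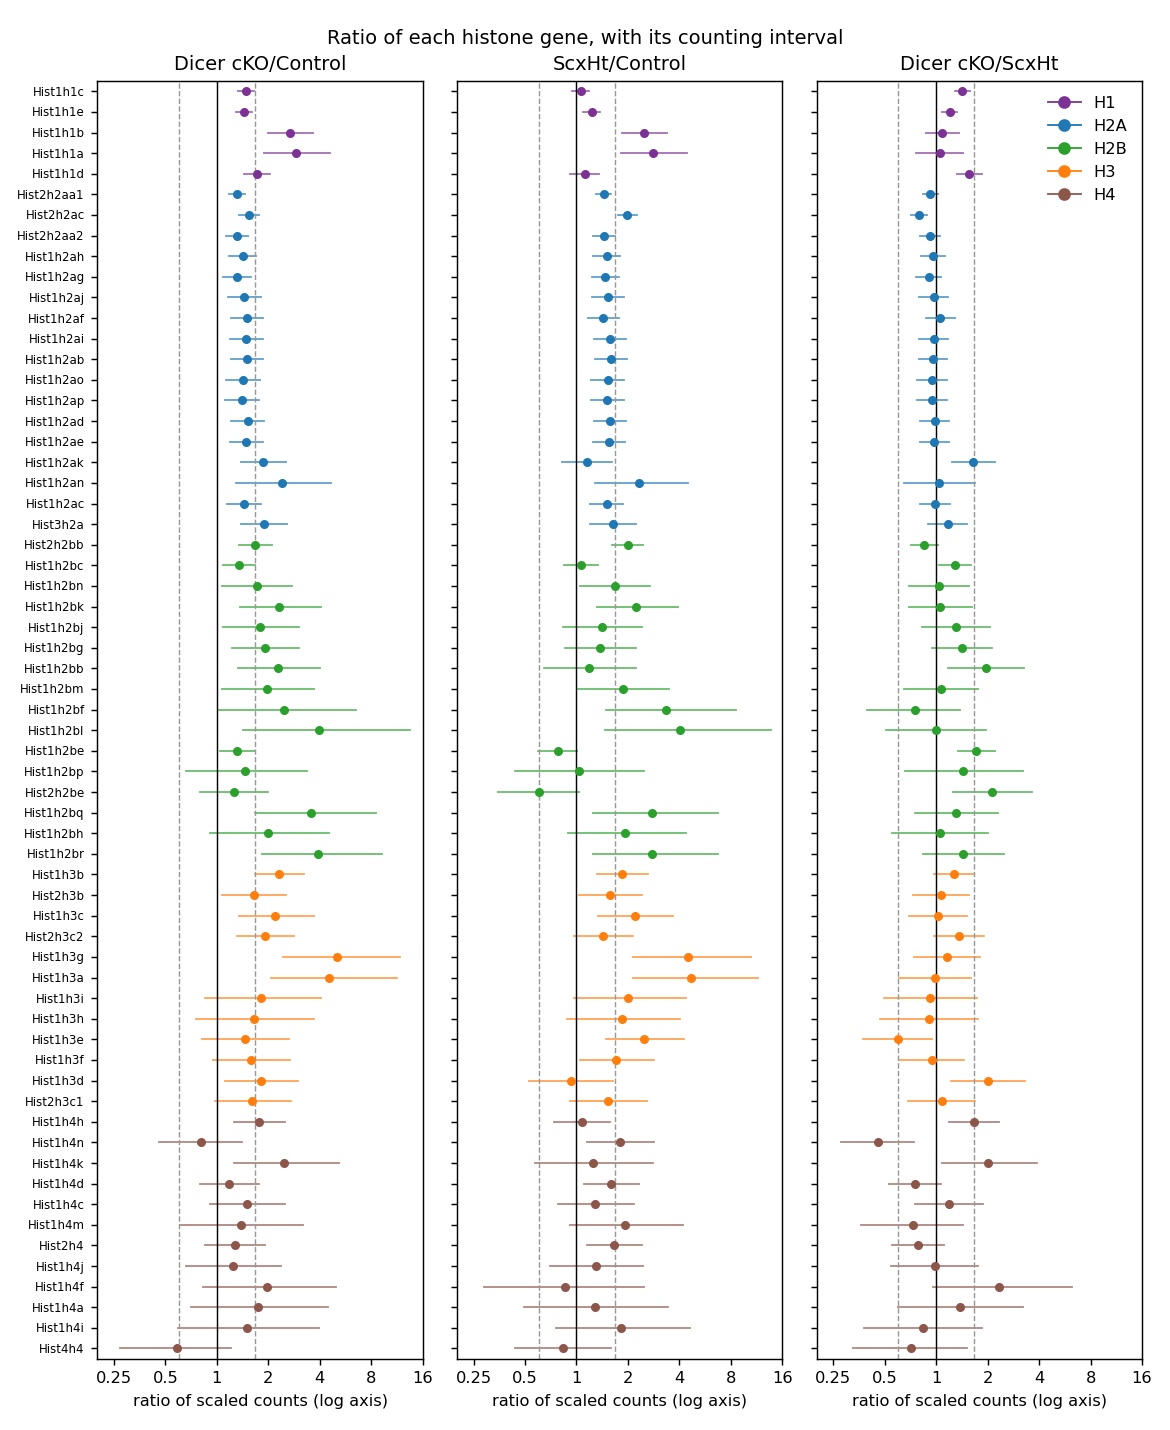
Ratio (log axis) of each of the 62 members with its 95% counting interval, grouped and coloured by histone type and ordered by RPKM within a type. Dashed lines mark the thresholds of the study; in the left panel no interval lies below 1, and in the right panel 3 do.

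H1, the linker histone, sits on the DNA between nucleosomes. Hist1h1a had 29, 85 and 81 counts, and Hist1h1b had 63, 164 and 162. For both genes the Cre libraries were alike and the Control was low: the Dicer cKO/Control ratio was 2.90 (1.88 to 4.60) for Hist1h1a and 2.67 (1.98 to 3.63) for Hist1h1b, the ScxHt/Control ratio 2.81 (1.82 to 4.44) and 2.49 (1.85 to 3.39). No 50-base window of either transcript occurs in another gene. Hist1h1a had the highest ratio to the Control of all members with baseMean above 50, in both comparisons. The other H1 genes followed another order. Hist1h1c had 562, 620 and 802 counts and Hist1h1d 200, 233 and 330, in the order Control, ScxHt, Dicer cKO, so that here the Dicer cKO library stood apart. The Dicer cKO/ScxHt ratio was 1.43 (1.28 to 1.59) for Hist1h1c and 1.56 (1.32 to 1.85) for Hist1h1d, and the intervals of their ScxHt/Control ratios, 1.06 and 1.12, held 1. Hist1h1e, with 544, 696 and 756 counts, was above the Control in both Cre libraries, with a ratio of 1.23 (1.09 to 1.37) in ScxHt and 1.44 (1.29 to 1.61) in Dicer cKO. Its exons overlap those of Hist1h2be on the same strand.

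H2A and H2B pair as dimers in the nucleosome. Hist2h2ac had 379, 785 and 563 counts, so the ScxHt library was highest, with ScxHt/Control at 1.98 (1.75 to 2.25) and Dicer cKO/ScxHt at 0.790 (0.708 to 0.882). Hist2h2aa1 had 628, 945 and 794 counts and Hist2h2aa2 had 310, 467 and 392, with the same order of libraries, but their Dicer cKO/ScxHt intervals held 1. Of the 17 H2A genes, 13 were highest in the ScxHt library and 4 in the Dicer cKO library, and all 17 were lowest in the Control. The order of the 2 Cre libraries is mostly within counting error, as the Dicer cKO/ScxHt interval held 1 for 15 of the 17. Hist1h2ak had 70, 84 and 126 counts and Hist3h2a 67, 114 and 121, and both passed the upper threshold for Dicer cKO/Control, at 1.87 (1.38 to 2.54) and 1.88 (1.38 to 2.57).

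Many H2A values are not independent of each other. Of 13 H2A genes of the Hist1 cluster, 9 had nearly the same count, from 134 to 148 in the Control, 210 to 239 in the ScxHt and 184 to 213 in the Dicer cKO library. In 32 of the 62 members more than 50% of the 50-base windows of the transcripts also occur in another gene, with a median of 79.7% for H2A, 62.0% for H3, 51.7% for H2B, 34.2% for H4 and 2.25% for H1. The counts implied by RPKM and gene length were whole, within 0.05, for 3 of 40 members with 30 to 300 summed counts (7.50%) and for 58.2% of 7398 genes in that range. How reads that fit several genes were counted is not given in the sources used here, and where members share reads the intervals of their sums are too narrow. In the 7 members with under 10% of windows shared, namely Hist1h1a, Hist1h1b, Hist1h1c, Hist1h1d, Hist2h2be, Hist2h4 and Hist4h4, summed counts gave a Dicer cKO/Control ratio of 1.61 (1.48 to 1.75), while ScxHt/Control was 1.22 (1.12 to 1.33) and Dicer cKO/ScxHt 1.34 (1.24 to 1.44). In the 32 members with over 50% shared these were 1.50 (1.43 to 1.57), 1.56 (1.49 to 1.64) and 0.974 (0.934 to 1.02). Most counts of the former 7 are of H1 genes, with 562 of 963 Control counts in Hist1h1c alone. Their ratios are near the H1 sums of 1.58, 1.23 and 1.31, and the 32 members hold no H1 gene. Read sharing and histone type therefore cannot be told apart here. Hist2h2aa1 and Hist2h2aa2 are near-identical neighbours, and the gene lengths behind the authors' RPKM are swapped between them relative to GENCODE vM21, so which of them a value belongs to is uncertain.

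Among the H2B genes, Hist2h2bb had the highest level, with 137, 285 and 221 counts. Its opposite- and same-strand neighbours Gm20628 and Gm42743 overlap its exons. Its ratio to the Control was 1.99 (1.62 to 2.46) in ScxHt and 1.68 (1.35 to 2.09) in Dicer cKO. Hist1h2be had 132, 107 and 167 counts and was the member with the lowest ScxHt/Control ratio, 0.777 (0.596 to 1.01), and the highest Dicer cKO/ScxHt ratio, 1.72 (1.34 to 2.21), among those with baseMean above 50. Its exons overlap part of Hist1h1e, and how reads in the overlap were counted is not given, so the 2 counts may not be separate. Hist1h2bc had 154, 171 and 200 counts, with a Dicer cKO/ScxHt ratio of 1.29 (1.05 to 1.59), and Hist1h2bn had 31, 54 and 51 counts. Of 16 H2B genes, 14 were highest in the Dicer cKO library, on counts scaled over all 3 libraries. This order is mostly within counting error, as the Dicer cKO/ScxHt interval held 1 for 12 of the 16.

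H2A and H2B genes often lie head to head and share the DNA between their starts. There were 12 such pairs, with starts 176 to 302 bases apart. In all 12 both genes had a Dicer cKO/Control ratio above 1. This held for all 17 H2A and all 16 H2B members, so it would follow from any pairing of them. In the Dicer cKO/ScxHt comparison the H2B gene had the higher ratio in 10 of 12 pairs, with a median of 1.30 for H2B against 0.966 for H2A. Most of these single ratios are within counting error of 1, as the interval held 1 for 12 of all 16 H2B and 15 of all 17 H2A members. Some paired genes had few counts, such as Hist1h2bl with 5, 21 and 19. The pairs are also not independent, because many H2A counts are nearly equal. The pair whose Dicer cKO/ScxHt ratios lay furthest apart was Hist2h2ac with Hist2h2be, the latter chosen after its values were seen. Hist2h2be had 38, 24 and 46 counts. Its ScxHt/Control ratio was 0.605 (0.347 to 1.04) and its Dicer cKO/ScxHt ratio 2.11 (1.26 to 3.62), and neither interval meets that of Hist2h2ac. Hist2h2be shares no 50-base window with another gene, had no stem-loop match in the window searched and has an annotated exon length of 2620 bases against 520 for Hist2h2ac. The 240 bases from the start of Hist2h2ac, which is read to the left, to that of Hist2h2be, which is read to the right, are shown on the plus strand (chr3:96220880-96221119, GRCm38), with matches to the 4 motifs in capitals, 3 of them CCAAT, 1 TATAAA and 1 ATTTGCAT.
Hist2h2ac-Hist2h2be: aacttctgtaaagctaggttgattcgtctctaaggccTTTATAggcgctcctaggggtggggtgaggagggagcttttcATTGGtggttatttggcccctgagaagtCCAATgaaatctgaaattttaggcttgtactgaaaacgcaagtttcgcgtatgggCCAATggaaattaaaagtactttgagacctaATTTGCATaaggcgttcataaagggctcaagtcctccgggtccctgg

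H3 and H4 form the core tetramer of the nucleosome. Hist1h3b had 55, 106 and 122 counts, with ratios to the Control of 1.85 (1.32 to 2.61) and 2.30 (1.66 to 3.23). Hist2h3c2 had 45, 67 and 83 counts and a Dicer cKO/Control ratio of 1.92 (1.32 to 2.82). Hist2h3b had 38, 62 and 60 counts and Hist1h3c 25, 57 and 53, with the intervals of all 4 ratios to the Control above 1. The highest ratios to the Control of all members were those of Hist1h3g, with 9, 42 and 44 counts, and Hist1h3a, with 8, 39 and 35, chosen after their values were seen. Their Dicer cKO/Control ratios were 5.08 (2.45 to 11.8) and 4.54 (2.07 to 11.3), and both genes were under the minimum baseMean.

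Single H4 genes differed in which library was highest. Hist1h4h had 56, 63 and 95 counts, and the Dicer cKO library stood above both others, with a ratio of 1.76 (1.25 to 2.50) to the Control and 1.66 (1.20 to 2.32) to ScxHt. Hist1h4k, with 13, 17 and 31 counts, had the same order, with a Dicer cKO/ScxHt ratio of 2.01 (1.08 to 3.87). Hist1h4n went the other way, with 32, 60 and 25 counts and a Dicer cKO/ScxHt ratio of 0.459 (0.276 to 0.743), and 85.6% of its windows occur in other genes. Hist1h4d, with 50, 83 and 57 counts, had the lowest ratio of the members with baseMean above 50 both for Dicer cKO/Control, 1.18 (0.795 to 1.77), and for Dicer cKO/ScxHt, 0.757 (0.530 to 1.07). Hist4h4, chosen after its values were seen, was the member highest in the Control, with 23, 20 and 13 counts, and all 3 of its intervals held 1.

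The annotation of the members differs past the stem-loop, and the values were set beside it. In 25 members the annotated gene ran more than 100 bases past the end of the stem-loop, in 34 it did not, and 3 had no stem-loop match. This split was chosen after the values were seen and is a description. The extended genes summed to 2341, 3030 and 3391 counts, and the others to 3274, 5566 and 4863. The ScxHt/Control ratio was 1.24 (1.17 to 1.31) for the extended genes and 1.63 (1.56 to 1.70) for the others. In these pooled sums, though not within H1 (below), Dicer cKO/Control was alike, at 1.50 (1.43 to 1.59) and 1.54 (1.48 to 1.61). Dicer cKO/ScxHt was therefore 1.23 (1.17 to 1.30) and 0.963 (0.926 to 1.0006). Without Hist1h1e, which held the most counts of the extended genes, that ratio was 1.24 (1.18 to 1.32).

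For ScxHt/Control and Dicer cKO/ScxHt the same division held within H1 and H2B but not in every type. For H1 the Dicer cKO/ScxHt ratio was 1.34 (1.26 to 1.44) in the 3 extended genes and 1.08 (0.897 to 1.29) in the other 2, and ScxHt/Control was 1.14 (1.06 to 1.22) against 2.59 (2.03 to 3.33). For H2B the Dicer cKO/ScxHt ratio was 1.42 (1.24 to 1.62) in 7 extended genes, all 7 above 1, and 0.991 (0.874 to 1.12) in 8 others, and ScxHt/Control was 1.10 (0.950 to 1.27) against 1.92 (1.66 to 2.24). For H2A the 3 extended genes and the 12 others had the same ScxHt/Control ratio, 1.55. Their Dicer cKO/ScxHt ratios were 1.02 (0.900 to 1.15) and 0.932 (0.891 to 0.975). For H4 the order turned, with a Dicer cKO/ScxHt ratio of 0.874 (0.730 to 1.05) in the 7 extended and 1.18 (0.952 to 1.46) in the 5 other genes. Their ScxHt/Control ratios were 1.43 (1.19 to 1.73) and 1.35 (1.07 to 1.72). For H3 the Dicer cKO/ScxHt values were 1.12 (0.934 to 1.34) and 1.10 (0.948 to 1.28), and ScxHt/Control was 1.56 (1.26 to 1.92) against 2.13 (1.76 to 2.59). Dicer cKO/Control was lower in the extended genes within H1, at 1.50 (1.40 to 1.61) against 2.74 (2.15 to 3.53). In the other types its intervals overlapped, with 1.53 against 1.87 for H2B, 1.71 against 2.31 for H3 and 1.23 against 1.57 for H4. For H2A the order turned, with 1.55 against 1.42. Read sharing differed with this split: the median share of windows found in another gene was 30.1% for extended genes and 69.3% for the others, and its part in the result was not tested.

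**Figure D4:**
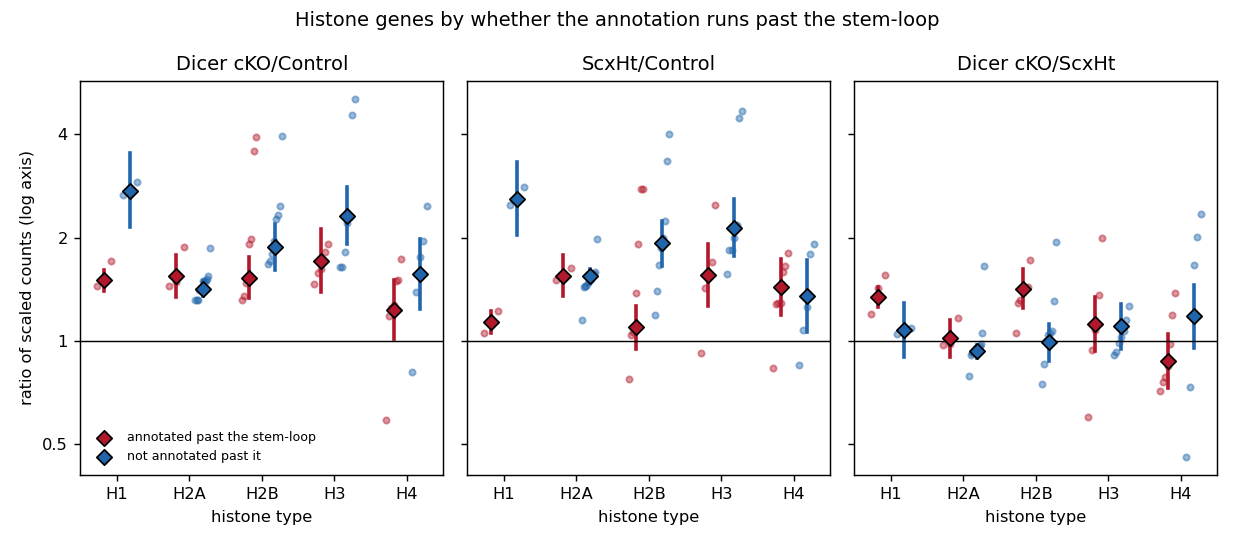
Ratios (log axis) of the members by histone type, split by whether the annotated gene runs more than 100 bases past the stem-loop (red) or not (blue). Small points are genes, diamonds are ratios of summed counts with 95% counting intervals; the red diamonds of H1 and H2B lie above the blue ones for Dicer cKO/ScxHt and below them for ScxHt/Control.

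Genes that act with histone supply were read beside the members. Of the list of S phase and DNA replication genes, all 35 were in the table. For ScxHt/Control 30 had a baseMean above 50, of which 10 were above the upper threshold and 0 below the lower, against 3.05% and 4.73% of all genes, with a median log2 ratio of 0.59, against 0.02 over all 13563 genes at that baseMean. For Dicer cKO/Control 8 of 31 were above and 0 below, against 3.87% and 4.17% of all genes, with a median of 0.53 against -0.03 over 13504 genes, and for Dicer cKO/ScxHt 0 of 32 were above and 1 below, against 7.67% and 5.68%, with a median of -0.03. The highest ScxHt/Control ratio was that of Clspn, a checkpoint adaptor of the replication fork, with 66, 219 and 194 counts. The other 9 above the threshold were the helicase factors Cdc45 (35, 90 and 99 counts) and Gins2 (45, 101 and 111), the nucleotide synthesis genes Tk1 (44, 99 and 112) and Rrm2 (89, 170 and 127), the primase Prim1 (57, 122 and 45), the clamp loader subunit Rfc3 (40, 79 and 64), the flap nuclease Fen1 (52, 100 and 89), the kinase Chek1 (45, 84 and 67) and cyclin Ccne2 (101, 185 and 147). Genes above the threshold for Dicer cKO/Control but not for ScxHt/Control were Tyms, which makes thymidylate (86, 135 and 147 counts), the polymerase Pole (175, 220 and 319) and the clamp loader subunit Rfc4 (35, 65 and 91), whose baseMean was too low in the ScxHt/Control comparison. The other 5 of those 8 were Clspn, Cdc45, Gins2, Tk1 and Fen1. Prim1 was the 1 gene below the lower threshold for Dicer cKO/ScxHt, at 0.406 (0.282 to 0.576). The most abundant genes of the list passed no threshold, and Rrm1 had 482, 584 and 513 counts, Pcna 381, 503 and 336, and Cdk2 404, 374 and 423.

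Factors that make, process and destroy histone mRNA were read next. Of 19 listed, 18 were found and 15 had a baseMean above 50, and none of these passed a threshold in any comparison. With 3.05% to 7.67% of all genes above and 4.17% to 5.68% below, 0 of 15 is near the background. So are the counts of 1 for the variants and 1 for the chaperone list that follow. The median log2 ratio was 0.15 for Dicer cKO/Control and 0.19 for ScxHt/Control. The interval lay above 1 for 6 of the 15 in each of these comparisons, against 18.8% and 19.7% of genes in the members' count range. It lay below 1 for 1 and 0 of the 15, against 19.7% and 18.4%. The exonuclease Xrn1 had 1827, 2018 and 1653 counts, the decay helicase Upf1 1395, 1514 and 1116, and Casp8ap2, a factor of the histone locus body, 799, 915 and 825. Slbp, chosen for its role at the stem-loop after its values were seen, had 213, 323 and 255 counts, with ratios to the Control of 1.45 (1.22 to 1.74) in ScxHt and 1.24 (1.03 to 1.50) in Dicer cKO. Npat, the activator of histone gene transcription, chosen likewise, had 438, 508 and 467 counts, and the intervals of its ratios held 1.

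Histone variants, made also outside S phase and mostly from polyadenylated mRNA, had medians nearer to the Control than those of the members. Of 11 listed, 10 had a baseMean above 50, and their median log2 ratio was 0.14 for Dicer cKO/Control and 0.20 for ScxHt/Control. The interval lay above 1 for 4 and 5 of the 10 in these comparisons, against 18.8% and 19.7% of genes in the members' count range. It lay below 1 for 0 and 1, against 19.7% and 18.4%. The linker variant H1f0 had 1439, 1540 and 1425 counts, H3f3b 1294, 1527 and 1352, and H3f3a 842, 1024 and 814, the latter pair being the genes of H3.3. The 1 gene above the upper threshold was Cenpa, the centromere H3, for Dicer cKO/Control, with 73, 114 and 127 counts and a ratio of 1.81 (1.34 to 2.44). H1fx, the variant under the minimum baseMean, had 35, 30 and 63 counts and a higher Dicer cKO/Control ratio, 1.87 (1.22 to 2.91). Its Dicer cKO/ScxHt ratio was 2.31 (1.48 to 3.70). Of 15 genes listed for histone chaperones and the acetyltransferase of new histones, 13 had a baseMean above 50. Their median log2 ratios were -0.04 for Dicer cKO/Control and 0.07 for ScxHt/Control. For Dicer cKO/Control the interval lay above 1 for 5 of the 13 and below 1 for 2. Of genes in the members' count range, it lay above 1 for 18.8% and below 1 for 19.7%. Chaf1a was highest of the 13, at 1.63 (1.31 to 2.03). Asf1b and Chaf1b, the genes of this list under the minimum baseMean, had Dicer cKO/Control ratios of 4.78 (2.38 to 10.6) and 2.88 (1.65 to 5.25). Supt16, a subunit of FACT, had 1846, 2199 and 1728 counts, Nap1l1 1456, 1993 and 1568, and Rbbp7 1384, 1502 and 1541. The 1 gene of this list past a threshold was the acetyltransferase Hat1, which acetylates new H4. It had 124, 186 and 99 counts and a Dicer cKO/ScxHt ratio of 0.586 (0.455 to 0.752).

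**Figure D5:**
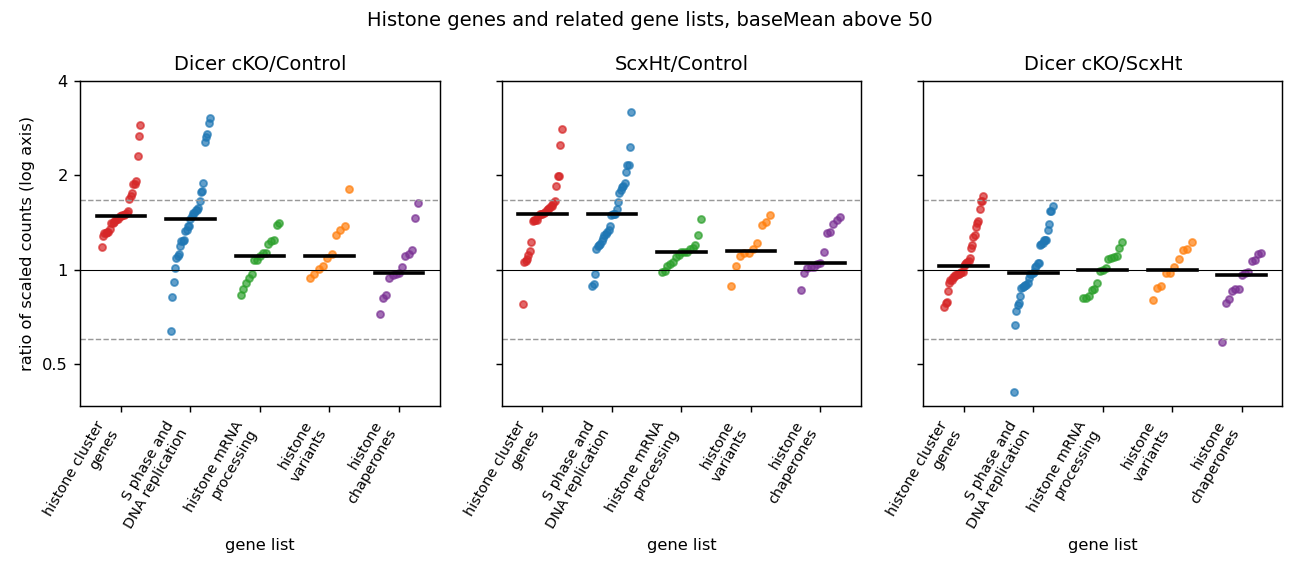
Ratios (log axis) of histone cluster genes and of 4 related gene lists in the 3 comparisons, for genes with baseMean above 50; points are genes, black bars medians and dashed lines the thresholds. The histone cluster genes and the S phase genes lie mostly above 1 against the Control, and the medians of all 5 lists lie near 1 for Dicer cKO/ScxHt.

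Marker genes of the tissue and of other cells differed between the libraries, and their part in the histone ratios was not tested. All 8 tendon fibroblast markers were detected in every library, with summed counts of 2187534, 1853804 and 1158197. Against the Control, the Dicer cKO interval lay below 1 for all 8, while the ScxHt interval lay above 1 for 5, among them Tnmd at 1.40, and below 1 for Col1a1, Col1a2 and Scx, with a median ratio of 1.11, so the lower ScxHt sum is that of the collagen genes. The 8 Schwann cell markers summed to 806, 812 and 7251, the 8 erythroid markers to 3192, 3309 and 7135, and the 8 skeletal muscle markers to 845047, 462425 and 1337394. Most of the muscle sum was Ttn, with 688745, 329060 and 1062032 counts. All 8 muscle markers had a Dicer cKO interval above 1 against either other library, but for ScxHt/Control 3 were below the lower threshold and 2 above the upper, Myh4 at 4.70 and Pvalb at 3.22. The 8 myeloid markers were highest in the ScxHt library, at 4267, 7456 and 3095 counts, and the 8 endothelial markers lowest there, at 10649, 7484 and 11165. Cartilage and bone markers summed to 25567, 34361 and 11859, with Bglap and Bglap2 at 0 in every library. Most of this sum was Comp, with 16710, 23084 and 7418 counts. Of the 5 with a baseMean above 50, the Dicer cKO/Control interval lay below 1 for all 5. The ScxHt/Control interval lay above 1 for 3 and below 1 for 2, Sox9 at 0.727 and Col2a1 at 0.814. Lymphocyte markers summed to 24, 33 and 19, with 5 of 8 at 0 in at least 1 library.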

How the data were processed

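Achilles tendon RNA-seq of 3 genotypes, 1 library each, was analysed. The authors removed adaptors, aligned read pairs with TopHat and Bowtie2 (GRCm38) and used HTSeq for the deposited counts per gene. The deposited RPKM values are the authors' own, scaled to gene length and library depth. Versions, annotation release, strand setting and poly(A) selection are not given in the sources used here. Some values behind the counts were not whole, so that the counts are rounded.

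Counts were scaled with DESeq2 1.42.0 size factors of the libraries compared (R 4.3.3), and ratios were taken with no pseudocount (Python 3.11.15, scipy 1.17.1, pandas 2.3.3, numpy 2.4.6). Their 95% exact intervals (Clopper-Pearson) hold counting error alone. The thresholds were those of the study, below 0.60 or above 1.67, at a baseMean above 50. With 1 library per genotype no p-value was computed. Ratios and intervals were tested on simulated data. Sequences were read from GRCm38, GENCODE vM21 and RefSeq with pysam 0.24.0, and figures were drawn with matplotlib 3.10.9.

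The members and lists were chosen with earlier results of these data known. Named members are the 3 of each type with the highest mean RPKM, all past a ratio threshold, the highest and lowest ratio of each comparison and those nearest the minimum of 30 counts. Of the 4 gene lists related to histones, the 3 most abundant genes and those past a threshold are named, and the marker lists are given as sums. Symplk was listed and not matched. Alternatives were edgeR 4.0.16 TMM, total counts, other count minimums, thresholds and a pseudocount of 1, and leaving out members.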

Additional observations from a re-analysis of the deposited data

How the results depend on the processing

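The median log2 ratio of the members stayed above 0 under all alternatives run for it: its range was 0.59 to 0.85 (Dicer cKO/Control), 0.42 to 0.75 (ScxHt/Control) and 0.0033 to 0.17 (Dicer cKO/ScxHt). Scaling to total counts moved every log2 ratio by 0.06, 0.10 and -0.06 in these comparisons. The ratios of summed counts were then 1.59, 1.57 and 1.01, and 12 members passed a threshold in the ScxHt/Control comparison, 0 in Dicer cKO/ScxHt. With edgeR TMM or size factors over all 3 libraries, 2 members were past a threshold for Dicer cKO/ScxHt. With no minimum baseMean the members past a threshold numbered 30, 23 and 8 in the order above, with thresholds of 2 and 0.5 they were 3, 2 and 0, and with the whole interval past a threshold they were 2, 3 and 0. The share of all genes past a threshold was not computed at any of these settings. These counts therefore stand without a background.

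Other alternatives were chosen after seeing the data. In the 30 members with under 50% of windows shared, the summed ScxHt/Control ratio was 1.37 and the summed Dicer cKO/ScxHt ratio 1.16. Of the 14 among them with baseMean above 50, 5 were above the upper threshold for Dicer cKO/Control and 3 for ScxHt/Control. The shares of all genes were 3.87% and 3.05%. In the 40 members whose exons overlap no other gene, the summed ratios were 1.70, 1.40 and 1.24 in the order above. Of those with baseMean above 50, 3 of 10 were above the upper threshold in ScxHt/Control and 0 of 13 in Dicer cKO/ScxHt. The shares of all genes were 3.05% and 7.67%. This set holds no H2A gene, so it differs from all members in histone type as well. Without Hist2h2ac the Dicer cKO/ScxHt intervals of H2A and of the Hist2 cluster, otherwise below 1, held 1. The cause of these differences was not tested. No paired analysis was possible because each genotype has 1 library, and for the same reason no library could be left out.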
